A study of Mus musculus with 9 samples.

Results

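The circRNA probes described here are 200 of the 14236 circRNA probes (1.4%) on an array hybridized with RNA of 9 mouse livers. They were chosen from the log2 values the authors deposited. A probe had to be well above background on all 9 arrays, which 5958 probes were, and the largest minus the smallest of its 3 group means had to stay under 1.5-fold on the log2 scale, which left 5539 probes. The 200 of these with the highest mean over the 9 arrays are the members. Low spread between group means and high brightness are therefore what chose them, and both are given below as descriptions without a test.

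The livers came from male C57BL/6 mice, and 3 mice of each group had been drawn at random for the arrays. In the sham group the vessels to the liver (portal vein, hepatic artery) were freed and not clamped. The IRI group (hepatic ischemia-reperfusion injury) had 1 h of partial hepatic ischemia and 6 h of reperfusion. The IPC group (ischemic preconditioning) had a short cycle before the same injury, with ischemia for 10 min and then reperfusion for 10 min. All RNA was treated with RNase R, which digests linear RNA and spares circles, and labeled with 1 dye, so a value says nothing of the linear RNA of the same gene. In a bulk liver sample fewer cells of a type and less RNA per cell cannot be told apart.

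CircRNAs are closed loops of RNA that arise by back-splicing, when a downstream splice donor is joined to an upstream acceptor. With no free ends they resist exonucleases and are usually long-lived, and in liver many come from exons of protein-coding genes. Some are known to bind miRNAs or proteins, while for most no function is known. Probes carry only the array maker's IDs in the files, without circRNA names, genes, positions or sequences, so none of these is given, and the liver label was not checked against marker genes here. According to the methods a transcript has several probes. Which probes belong together is not told by the files, so members may share a transcript, and counts below are counts of probes. A probe's brightness also depends on how well its sequence hybridizes and labels, and "bright" here means bright on the array and not abundant in the liver.

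The file headers carry 2 scan date stamps, called scan 1 and scan 2 here, and this split runs through the members. Slide, labeling or hybridization may have differed along with the stamp and cannot be told apart from the scan here. Scan 2 held sham replicate 1, IRI replicate 2 and IPC replicate 3, 1 array of each group, and scan 1 held the other 6 arrays, 2 of each group. On the scan 2 arrays 77.3% to 80.6% of all circRNA probes were well above background, and on the scan 1 arrays 46.8% to 63.3%. IRI replicate 3 stood apart from the other scan 1 arrays and had the highest of the latter shares. No member spot was saturated on any array. The scanner marked 35 member spots as outliers, which were left out of the values below, unless the deposited values are named. These spots lay in 21 members, 17 of them were on IRI replicate 3, and 0 were on a scan 2 array.

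The members carried most of the circRNA signal. Their summed signal was 64.9% to 69.4% of that of all circRNA probes on an array, and the 6 brightest members alone held 18.9% on IRI replicate 3 and 29.4% on IPC replicate 3, with the other 7 arrays between. Mean deposited values of the members ran from 10.51 to 17.52. In all, 235 probes were as bright as the dimmest member. The other 35 of them were left out by the limit on the group means and 0 by the detection flag. At the edge of the ranking lay ASCRP4010278 (10.52) and ASCRP4005002 (10.513) as the last members, and ASCRP4001206 (10.512) and ASCRP4008400 (10.51) as the first probes not taken.

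The group means of a member lay close together by choice, while its single arrays often did not. The range of the 3 group means on the deposited values had a median of 0.26 over the members, from 0.01 to 0.58, beside 0.18 over all probes tested and 0.20 over those well above background on all 9 arrays. Tested were probes that passed the background flag on 3 or more arrays, and all 200 members did. The range over the 9 single arrays had a median of 1.06 over the members, from 0.24 to 3.33, beside 0.63 over all probes tested and 0.73 over those well above background on all 9 arrays. It was at least 1, or 2-fold, in 111 members (55.5%), beside 18.1% and 26.1% of these probes. It was below 1.5-fold in 24 members (12%), beside 42.8% and 30.9%. These ranges are on the deposited values, and the gap need not hold on other values. On the scanner values the median SD within groups, described below, was 0.37 in the members, 0.42 in all probes tested and 0.35 in those detected on all 9 arrays. The members are called bright circRNAs with steady group means here, and "steady" covers only the deposited group means, where the rule sets it. On the scanner values, given below, 7 members went past 1.5-fold between groups.

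**Figure D1:**
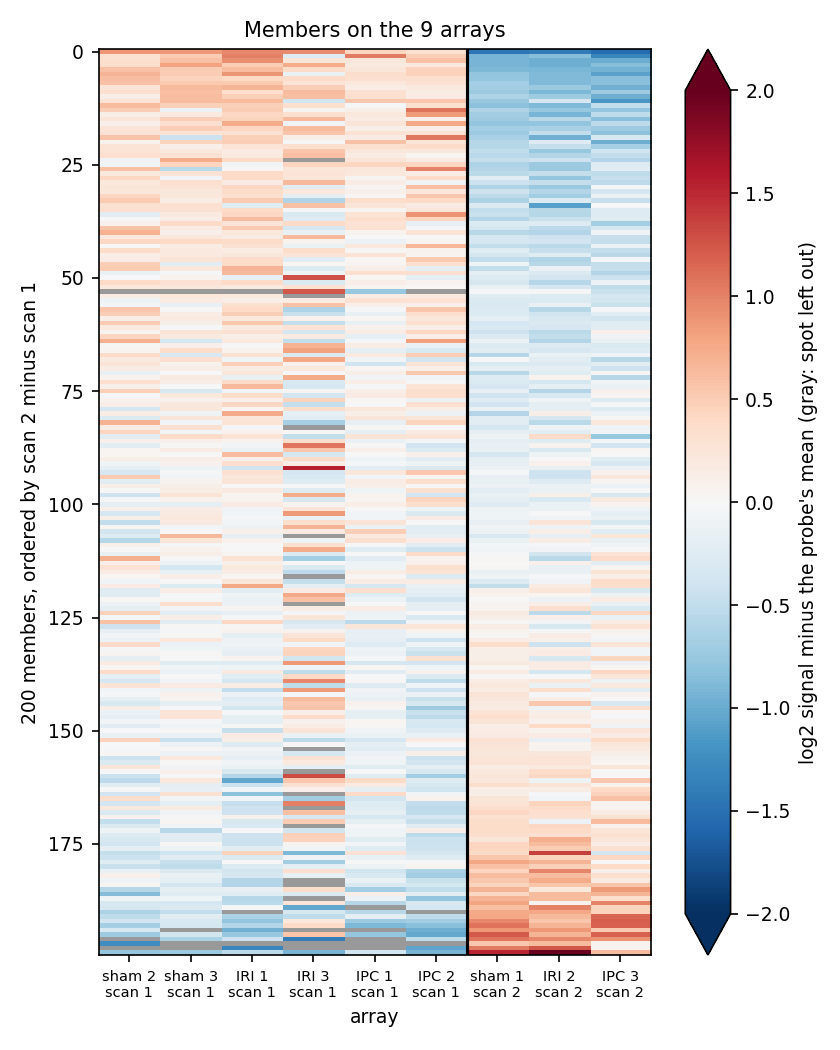
Each row is 1 of the 200 members and each column 1 of the 9 arrays, with the scan 1 arrays left of the black line and the scan 2 arrays right of it; the color is the log2 signal minus the probe's mean over the arrays, and gray marks spots left out. The scan 2 columns of all 3 groups turn from low at the top (−2.19 for scan 2 minus scan 1 in the first row) to high at the bottom (2.14 in the last), and IRI 3 differs from the other scan 1 columns in many rows.

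Group means were also taken within each scan, where members could exceed the limit that their means over all 9 arrays kept. In scan 1, with 2 arrays per group, the range of the group means was below 1.5-fold in 179 members (89.5%) and not in 21, beside 94.4% of all probes tested. Its median was 0.31 in the members, with a maximum of 0.77, and 0.22 in all probes tested. In scan 2, with 1 array per group, it was below 1.5-fold in 162 members (81%) and not in 38, beside 89.9% of all probes tested. Its median was 0.32 in the members, with a maximum of 1.60, and 0.23 in all probes tested. In both scans it was below the limit in 148 of the 200 members. That joint count was not taken over all probes tested, so nothing is read from it.

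The brightest members showed the same few values in changing order. ASCRP4006342, the brightest, had log2 signals of 17.56, 17.33 and 17.45 on sham replicates 1 to 3, of 17.56, 17.45 and 17.56 on the IRI arrays, and of 17.33, 17.56 and 17.56 on the IPC arrays. ASCRP4006710, the third by deposited mean, had 17.45, 17.45 and 17.33 in the sham group, 17.33, 17.56 and 17.32 in the IRI group, and 17.45, 17.33 and 17.45 in the IPC group. Quantile normalization gives every array the same set of values, so the brightest probes can only exchange the few values at the top. How much of their steady level comes from this was not tested.

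Scaling each array to the 75th percentile of its signals, which does not force the values to be shared, left these members more room. On that scale ASCRP4006342 was 11.84, 11.63 and 11.58 in the sham group, 11.98, 11.85 and 11.21 in the IRI group, and 11.43, 11.60 and 11.87 in the IPC group. The lowest of these values was on IRI replicate 3, and the arrays of the 3 groups overlapped. Its group means still lay within 0.05 of each other. For ASCRP4004008, ASCRP4006710 and ASCRP4012684, the second to the fourth by brightness, the group means lay within 0.16, 0.15 and 0.04 on the same scale.

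ASCRP4008132, the fifth by brightness, differed between scans. Its log2 signals were 15.85, 16.41 and 16.89 in the sham group, 16.41, 15.73 and 16.89 in the IRI group, and 16.89, 16.89 and 16.21 in the IPC group. The lowest array of each group was the one in scan 2. The scan 2 arrays lay 0.80 ± 0.19 (SE) below the scan 1 arrays, or 1.74-fold, with an adjusted P of 0.0217 (limma, 9 arrays). Its group means were 16.38 ± 0.52, 16.34 ± 0.58 and 16.66 ± 0.40 (SD, n = 3), close by the choice of members, with SDs that hold the scan difference. ASCRP4013042, the sixth, had group means of 16.47 ± 0.37, 16.20 ± 0.34 and 16.43 ± 0.14 (SD, n = 3).

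**Figure D2:**
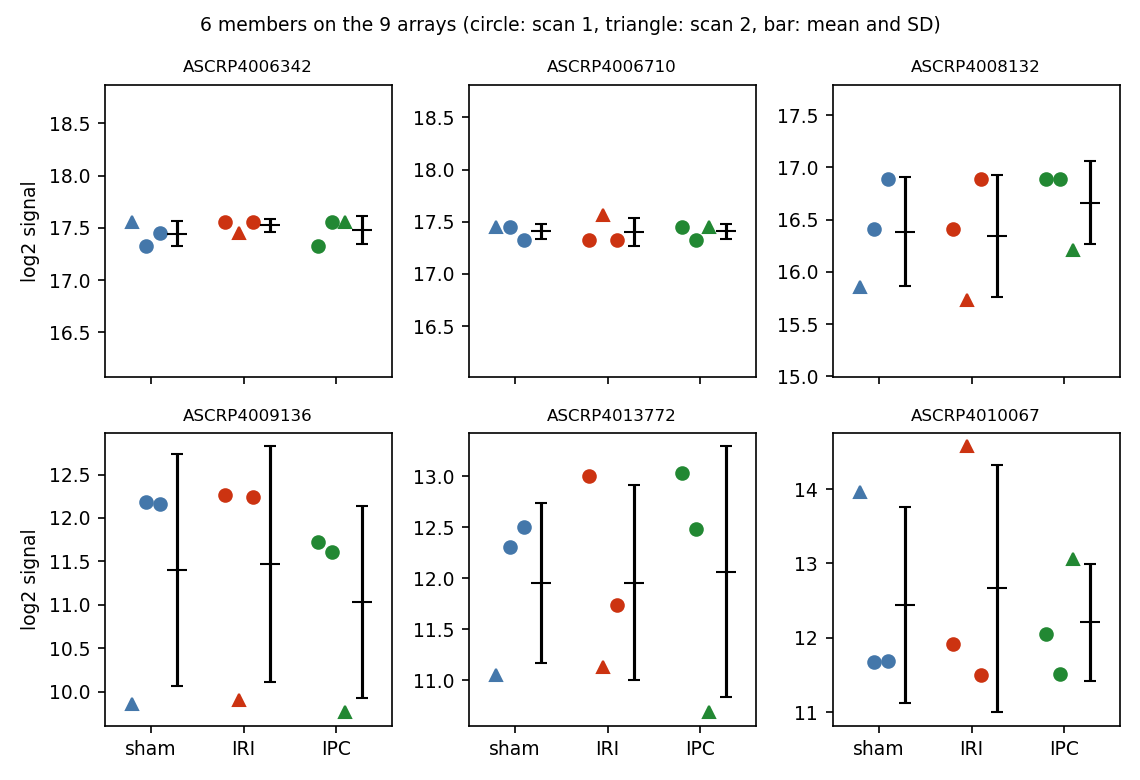
Points are the log2 signals of 6 members on single arrays, by group, with circles for scan 1 and triangles for scan 2, and bars give the mean and SD of 3 arrays; the axes differ between panels. ASCRP4006342 and ASCRP4006710 stay between 17.32 and 17.56, while in ASCRP4008132, ASCRP4009136 and ASCRP4013772 the triangle is the lowest point of every group and in ASCRP4010067 the highest.

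The scan contrast was not used to choose the members, has arrays of all 3 groups on both sides, and was tested with limma with the group as a covariate. Of the 200 members, 56 (28%) differed between scans at a Benjamini-Hochberg adjusted P below 0.05 over all 10534 probes tested, of which 18.4% did so. Among the probes well above background on all 9 arrays, when tested alone, 24.4% passed and 72 of the members (36%) did. Of the 200 members, 20 (10%) were called higher in scan 2, which was near the 10.3% of all probes tested, and 36 (18%) were called lower, beside 8% of all probes tested. The share called lower was above that of all probes tested in each of the fits tried, while the share called higher was above it in some and below it in others. On the deposited values 31 members (15.5%) were called higher, beside 10.7%, and with array weights 65 (32.5%) were called lower, beside 1850 of the 10534 probes tested. Higher ones made up 35.7% of the members called, and over the 5 other sets of values tried (other scaling, background correction or spots kept) 32.7% to 44.2%. These counts moved most without sham replicate 1, IRI replicate 2 or IPC replicate 3, the scan 2 arrays. Without the first of them 2 members were higher (1%, beside 3.38% of all probes tested) and 14 lower (7%, beside 2.02%). Without the second 7 were higher (3.5%, beside 4.2%) and 16 lower (8%, beside 1.88%), and without the third 2 (1%, beside 2.94%) and 13 (6.5%, beside 1.65%). Without IRI replicate 3 there were 26 (13%, beside 13.9%) and 47 (23.5%, beside 11.6%). Without IPC replicate 2 the counts were 13 (6.5%, beside 7.27%) and 25 (12.5%, beside 4.67%).

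By size, 71 members (35.5%) differed at least 1.5-fold between scans, beside 31.2% of all probes tested and 23.9% of those detected on all 9 arrays. A difference of at least 2-fold was found in 30 members, beside 11.3% of all probes tested. The median size was 0.40 in the members, 0.38 in all probes tested and 0.33 in those detected on all 9 arrays. In 77 members (38.5%) the scan 2 arrays did not overlap the scan 1 arrays, beside 24.6% of all probes tested and 26.6% of those detected throughout. On the scanner values the scan difference was larger than the range of the group means in 130 members, and in 5646 of the 10534 probes tested, but the choice of members capped the group range and nothing is read from this count.

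**Figure D3:**
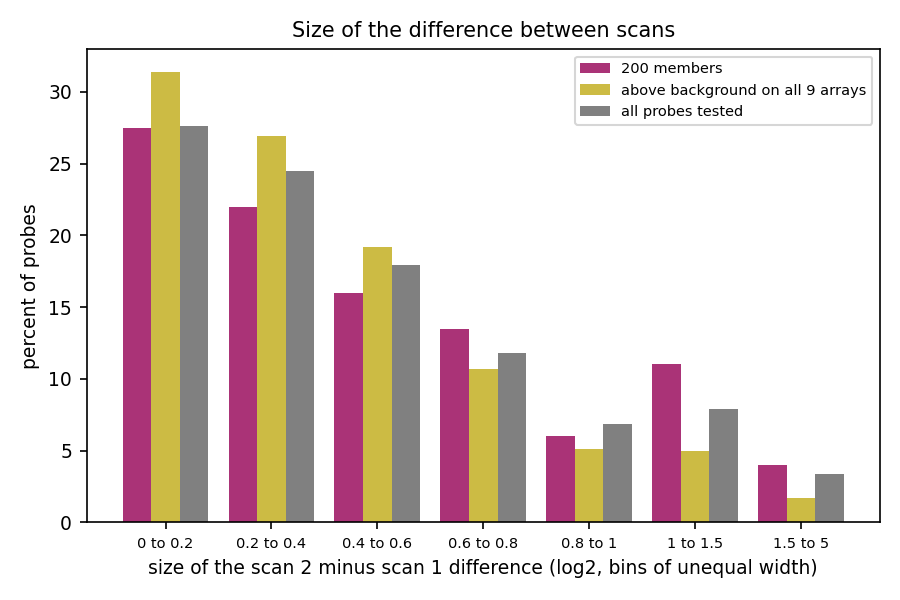
Bars give the percent of probes by size of the scan 2 minus scan 1 difference in log2 signal, for the 200 members, for probes well above background on all 9 arrays and for all probes tested; the bins have unequal widths. Between 1 and 1.5 lay 11% of the members, 5% of the probes detected on all 9 arrays and 7.93% of all probes tested.

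ASCRP4009136 was the member that fell most in scan 2. Its log2 signals were 9.86, 12.19 and 12.16 on sham replicates 1 to 3, 12.26, 9.90 and 12.24 on the IRI arrays, and 11.72, 11.61 and 9.76 on the IPC arrays. In each group the scan 2 array lay well below the other 2 arrays, and the scans did not overlap. The difference was −2.19 ± 0.16 (SE), or 4.56-fold, with an adjusted P of 0.000523 (limma). Because each group held 1 such array, the group means were 11.40, 11.47 and 11.03, and the probe met the limit on group means.

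ASCRP4013772 was the second in this direction. It measured 11.06, 12.30 and 12.50 in the sham group, 13.00, 11.13 and 11.74 in the IRI group, and 13.03, 12.48 and 10.69 in the IPC group. Again the scan 2 array was the lowest of its group, and IRI replicate 3 was the lowest of the scan 1 arrays. The difference was −1.55 ± 0.30 (SE), or 2.93-fold, with an adjusted P of 0.0112, which became 0.0531 without sham replicate 1 and 0.0846 without IPC replicate 3 (limma).

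ASCRP4010067 rose most in scan 2. It measured 13.97, 11.67 and 11.69 in the sham group, 11.91, 14.57 and 11.51 in the IRI group, and 12.05, 11.51 and 13.06 in the IPC group. The scan 2 array was the highest of every group, and the 6 scan 1 arrays lay between 11.51 and 12.05. The difference was 2.14 ± 0.29 (SE), or 4.42-fold, with an adjusted P of 0.00282 (limma).

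ASCRP4006767 followed, with less certainty. Of its spots 4 had been marked as outliers, all on scan 1 arrays, which left 12.19 on sham replicate 1, 9.85 and 12.39 on IRI replicates 1 and 2, and 10.10 and 11.23 on IPC replicates 2 and 3. The fit on these 5 arrays gave 1.83 ± 0.43 (SE), or 3.56-fold, with an adjusted P of 0.0479 (limma). The call was lost in 10 of the alternatives, with adjusted P-values of 0.0525 to 0.246. With 1 sham array left, the difference in the main fit rests on the IRI and IPC arrays alone. It was 1.13 without IRI replicate 1 or 2 and 2.54 without IPC replicate 2 or 3. On the deposited values, where every spot has a value, it was 1.73 with an adjusted P of 0.00101, and with the outlier spots kept 1.56 with an adjusted P of 0.00737.

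The members that were higher and those that were lower in scan 2 differed in their spots. Of the 20 higher ones, which rose by 0.63 to 2.14 with a median of 1.01, 8 had spots left out. Of the 36 lower ones, with differences of −2.19 to −0.58 and a median of −1.02, 1 had. Among the 144 members not called, 12 had. With the outlier spots kept, 23 members (11.5%) were called higher, beside 10.6% of all probes tested, and 29 (14.5%) lower, beside 7.68%. The part of these spots in the direction was not tested. The range of the group means on the deposited values had a median of 0.29 in the higher and 0.19 in the lower members, and of 0.28 in the 144 members not called.

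**Figure D4:**
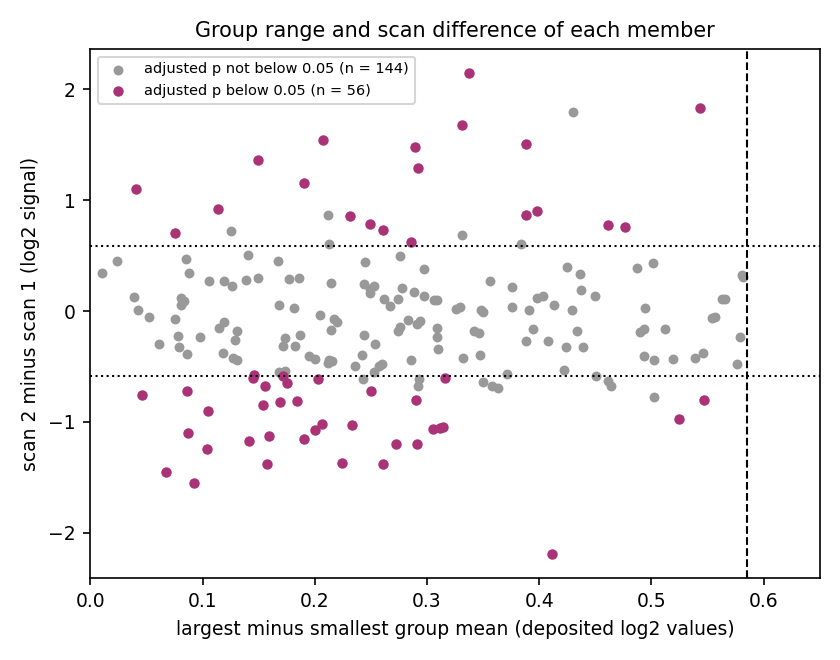
Each point is 1 member, with the range of its 3 group means on the deposited log2 values on the x axis and its scan 2 minus scan 1 difference in log2 signal on the y axis; colored points passed the adjusted P and dotted lines mark 1.5-fold. All points lie left of the dashed line at 1.5-fold, which the choice of members fixes, while they spread from −2.19 to 2.14 on the y axis.

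Of the variation of the 179 members with a value on every array, 57.8% lay between scans, 11.4% between groups and 30.8% in neither. Over all 10466 tested probes with 9 values the shares were 38.6%, 20.3% and 41.1%, and over those detected on all 9 arrays 40.8% lay between scans and 21.8% between groups. The choice of members holds the group share down, so these shares describe the members and are no test. The deposited values gave 57.7% between scans and 9.8% between groups.

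Arrays ordered the members alike within a scan and less so across scans. Over the 200 members, Spearman correlations of the deposited values were 0.81 to 0.98 (median 0.95) for the 15 pairs of arrays of the same scan and different groups. For the 6 pairs of the same group and different scans they were 0.73 to 0.81 (median 0.79). The nearest array was of the same scan for 9 of 9 arrays and of the same group for 0, and over all probes tested for 9 and 2. The choice of members holds differences between groups down on these values, so nothing is read from the counts over the members. All pairs share the probes' own brightness, so the values are a description. The 3 scan 2 arrays, 1 of each group, correlated with each other at 0.94 to 0.98.

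IRI replicate 3 ordered the members differently from the rest of its scan. It correlated with the other scan 1 arrays at 0.81 to 0.91, and these among themselves at 0.94 to 0.97. In 124 of the 179 members with all values it lay beyond all the other 5 scan 1 arrays, above them in 71 and below them in 53. Each of the other scan 1 arrays did so in 22 to 82 members. Its share of probes above background and its marked spots, given above, moved with this, and their part in it was not tested.

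On the scanner's processed signal, which the choice of members did not use directly, few members exceeded 1.5-fold between groups. The number was 3 of 200 for IRI vs. sham, beside 12.4% of all probes tested, 5 for IPC vs. IRI, beside 12.4%, and 1 for IPC vs. sham, beside 8.67%. Nothing is read from these counts, since the same contrasts chose the members. In total 7 members passed 1.5-fold in at least 1 comparison, 4 of them with spots left out, and 6 did so with all spots kept. Scaling to the 75th percentile gave 5, 20 and 2 in the 3 comparisons. Each of the 9 arrays, when left out, moved at least 1 of the counts by over 1.5 times, up to 19 for IRI vs. sham and 41 for IPC vs. IRI without IRI replicate 1, and 18 for IPC vs. sham without IPC replicate 3. The median differences of the members were 0.02 for IRI vs. sham, −0.07 for IPC vs. IRI and −0.07 for IPC vs. sham, beside −0.01, −0.02 and −0.03 over all probes tested.

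The members behind these counts were named after their values were seen. For IRI vs. sham they were ASCRP4006767 (−1.07, from 1 sham and 2 IRI arrays), ASCRP4006766 (0.98, from 2 sham arrays and 1 IRI array) and ASCRP4012530 (0.64, from 1 sham and 2 IRI arrays). In each of the 3 the spots left out removed more scan 1 than scan 2 arrays. For IPC vs. IRI they were ASCRP4012530 (−1.21, 2 arrays in each group), ASCRP4003952 (−0.69), ASCRP4006640 (−0.63), ASCRP4010898 (−0.61) and ASCRP4004683 (0.69, 1 IRI array left out). For IPC vs. sham it was ASCRP4006767 (−1.52, from 1 sham array).

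In 3 of these IRI replicate 3 was the highest of all arrays. ASCRP4010898 measured 13.60, 13.53 and 13.77 in the sham group, 13.70, 13.82 and 14.82 in the IRI group, and 13.76, 13.37 and 13.37 in the IPC group. ASCRP4003952 measured 11.85, 11.17 and 11.61 in the sham group, 11.02, 12.02 and 12.91 in the IRI group, and 11.37, 10.91 and 11.61 in the IPC group. In both, without IRI replicate 3, the IRI arrays overlapped those of both other groups. ASCRP4012530 had 14.21 on IRI replicate 3 and 12.94 on IRI replicate 2, beside 12.94 on sham replicate 1 and 12.21 and 12.52 on IPC replicates 1 and 3.

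At the limit on the group means, the last members inside were ASCRP4002668 and ASCRP4003952, with ranges of 0.582 and 0.581 on the deposited values. ASCRP4002668 had deposited values of 11.56, 11.30 and 11.30 in the sham group, 10.88, 11.63 and 12.74 in the IRI group, and 11.20, 10.92 and 11.39 in the IPC group. The highest, on IRI replicate 3, was a spot marked as an outlier. The first probes outside were ASCRP4013749 with 0.586 and ASCRP4003674 with 0.604.

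The brightest probe left out by that limit was ASCRP4001750, with a mean deposited value of 15.16 and group means of 15.44 in sham, 14.46 in IRI and 15.57 in IPC. Its deposited values were 14.74, 15.60 and 15.98 in the sham group, 15.71, 14.49 and 13.19 in the IRI group, and 15.93, 15.85 and 14.94 in the IPC group. Among these, IRI replicate 3 was the lowest and the scan 2 arrays were the lowest of sham and IPC. IRI replicate 1 lay within the range of the other groups.

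The SD within groups, pooled over the 3 groups, had a median of 0.37 over the members, from 0.10 to 1.39. Over all probes tested the median was 0.42, and over those detected on all 9 arrays 0.35. On the deposited values the medians were 0.38 for the members, 0.22 for all probes tested and 0.25 for those detected throughout, so whether members varied less or more than all probes tested turned with the scale. Within scan 1 alone the median was 0.29, beside 0.35 for all probes tested. The members with the smallest SD were ASCRP4006710 (0.10), ASCRP4005609 (0.11) and ASCRP4006342 (0.11), and those with the largest were ASCRP4006767 (1.39), ASCRP4010067 (1.31) and ASCRP4009136 (1.27).

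ASCRP4005609 is an example of a spread set by the values used. Its log2 signals were 15.17, 15.25 and 15.06 in the sham group, 15.25, 15.25 and 15.16 in the IRI group, and 15.06, 15.25 and 14.93 in the IPC group. On the deposited values its SD within groups was 0.35, and the scan 2 arrays, at 14.88, 14.94 and 14.79, lay below all scan 1 arrays, which were 15.20 to 15.54.

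The spread decides how narrowly a group difference of a member could be bounded. The limma fit had 3.80 prior and at most 6 residual degrees of freedom, with fewer residual ones in the 21 members with a spot left out. The widest 95% half-width of a member's 3 group differences had a median of 0.70 over the members, or 1.63-fold, beside 0.75 over all probes tested. It ran from 0.47 for ASCRP4006710 to 2.65 for ASCRP4006767, which had spots left out. It was below 1.5-fold in 42 members (21%), beside 16.7% of all probes tested. In a fit on only the probes detected on all 9 arrays it was below 1.5-fold in 74 members (37%), beside 41.1% of those probes. The count and its order against the other probes turned with the values used. It was 98 (49%) with normexp, beside 90.9% of all probes tested, 101 (50.5%) on uncorrected signals, beside 86.8%, and 99 (49.5%) on the deposited values, beside 85%. In the other 158 members at least 1 group difference had a half-width of 1.5-fold or more in the fit on groups alone.

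With the scan as a block the half-width was below 1.5-fold in 134 members (67%), beside 48% of all probes tested, with medians of 0.54 and 0.59. Of these members 92 were not below it in the fit on groups alone. The intervals of all 3 group differences lay within 1.5-fold of no change in 3 members, and in 28 with the scan as a block, beside 89 and 673 of the 10534 probes tested. These intervals are centered on the group differences that chose the members, so nothing is read from these counts. For ASCRP4009136 the half-width fell from 1.87 to 0.42 with the block, and for ASCRP4006342 from 0.48 to 0.41. Leaving out an array, which also costs degrees of freedom, lowered the count of 42 each time. It was 2, 10 and 2 without sham replicate 1, 2 and 3, 12, 4 and 34 without IRI replicate 1, 2 and 3, and 3, 6 and 12 without IPC replicate 1, 2 and 3. The shares over all probes tested fell as well. In the same order they were 0.589%, 3.18% and 0.921%, then 3.08%, 1.08% and 9.27%, then 0.75%, 1.09% and 3.94%. The number of arrays, 3 per group, is one limit on the precision.

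**Figure D5:**
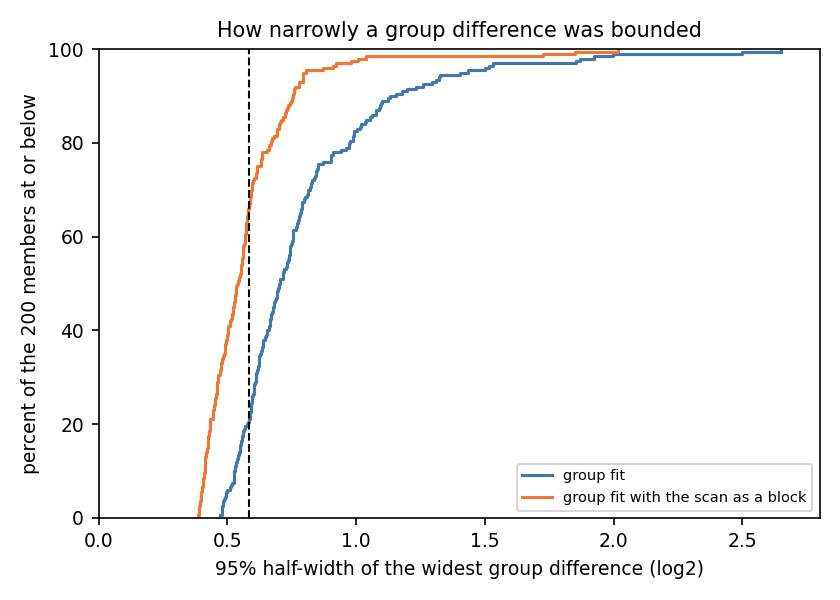
The curves give the percent of the 200 members whose widest 95% half-width of a group difference (log2) was at or below the value on the x axis, fitted on the groups alone or with the scan added as a block. At the dashed 1.5-fold line the curves stand at 21% and 67%.

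When the members were split by brightness into 4 sets of 50, 12, 13, 17 and 14 differed between scans, from the brightest set to the dimmest, and the median SD within groups was 0.37, 0.38, 0.36 and 0.38. Above the middle row of the array lay 101 members and 5324 of the 10534 probes tested, and left of the middle column 107 members and 5282 probes.

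Among the members were 7 pairs with consecutive IDs, which may or may not belong to the same gene. ASCRP4006766 and ASCRP4006767 were the pair with the most similar pattern, named after their values were seen. ASCRP4006766 measured 12.52 and 10.73 on sham replicates 1 and 2, 12.61 on IRI replicate 2 and 12.04 on IPC replicate 3, with the other 5 spots left out. Both were highest on the 3 scan 2 arrays. The scan difference of ASCRP4006766 was 1.79. It is sham replicate 1 against sham replicate 2, since no other group kept arrays of both scans.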

How the data were processed

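RNase R-treated liver RNA of 9 mice was hybridized to 1-color Arraystar circRNA arrays in Agilent format, with 3 arrays per group. The authors deposited the scanner output of Agilent Feature Extraction 11.0.1.1, where the processed signal is an intensity after background correction, and a table of log2 values. The methods name quantile normalization with limma and a filter on low intensities. For that table the background correction was not given in the sources used here.

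The members were found on the deposited log2 values. For all other values unless stated, processed signals were put on the log2 scale after removal of outlier spots (the scanner's non-uniform and population flags), and quantile normalized over the 14236 circRNA probes with limma 3.58.1 in R 4.3.3. Probes well above background on at least 3 arrays entered the fits (lmFit and eBayes), and P-values were adjusted over all of them. Fits were tested on simulated data. No 2 arrays of a group held the same signals, and 0 columns of per-sample values were unused. Arrays are separate mice.

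The members, lists and tests were chosen with earlier results of these data known. Named members are the 6 brightest, the 3 with the smallest and the 3 with the largest SD within groups, the 2 highest and 2 lowest scan differences among those called, those at either limit, and the brightest probe left out. A few others are marked as named after their values were seen.

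Alternatives were scaling to the 75th percentile, normexp (offset 50), uncorrected spot signals, other filters, the deposited table, outlier spots kept, array weights, the scan or the replicate number as a block, scan 1 alone, other limits on the group means, and each array left out in turn.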

Additional observations from a re-analysis of the deposited data

How the results depend on the processing

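The rule gave 169 to 200 of the same 200 members on the other values, detection filter and limits tried, except for a limit of 0.3, which kept 123, and 154 (without IRI replicate 1) to 193 with 1 array left out. Members past 1.5-fold numbered 3 for IRI vs. sham, 5 for IPC vs. IRI and 1 for IPC vs. sham. They were 5, 20 and 2 when scaled to the 75th percentile, 0, 0 and 0 on the deposited values by construction, and 1 for IRI vs. sham with outlier spots kept. With 1 array left out they ran from 3 to 19, 5 to 41 and 1 to 18, the highest without IRI replicate 1 for the first pair of comparisons and without IPC replicate 3 for the last.

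Members with a half-width below 1.5-fold numbered 42, and 98 with normexp, 101 without background correction, 99 on the deposited values, 74 with probes detected on all 9 arrays, 134 with the scan as a block, and 0 in scan 1 alone, which has fewer arrays. With 1 array left out there were 2 to 34 (1% to 17%, beside 0.589% to 9.27% of all probes tested). An alternative added after seeing the data, the scan as a block without IRI replicate 3, gave 151 (75.5%, beside 48.2%).

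Members higher in scan 2 numbered 20, and 31 on the deposited values and 2 to 26 with 1 array left out. Members lower in scan 2 numbered 36, and 65 with array weights and 13 to 47 with 1 array left out. Except where an alternative's construction is named, the cause was not tested. The median SD within groups was 0.33 to 0.39 with 1 array left out. The scan differences of ASCRP4009136, ASCRP4013772, ASCRP4010067 and ASCRP4006767 kept their direction in every alternative run for them, and those of other named probes were not recomputed.

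Deviations of arrays with the same replicate number correlated at −0.56 to 0.53. Each number spans both scans, so these values cannot tell whether the number is a pairing. With the replicate number as a block the half-width was below 1.5-fold in 4 members (2%, beside 1.74% of all probes tested), and the median SD was 0.41. The scan counts in that setting were 15 higher (7.5%, beside 8.4%) and 27 lower (13.5%, beside 5.91%).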
